A study of Homo sapiens with 13 samples.

Results

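The genes described here encode the ligands and receptors of 4 axon guidance systems: semaphorins with their plexin and neuropilin receptors, ephrins with Eph receptors, SLITs with ROBO receptors, and netrins with UNC5 receptors. Members were taken by gene symbol alone, with no value in the rule, although the families were picked with earlier results of these data known, and each has an Ensembl gene identifier in the count tables. The rule found 66 of 61541 genes, of which 33 belong to ligand families (20 semaphorins, 8 ephrins, 3 SLITs and 2 netrins) and 33 to receptor families (9 plexins, 2 neuropilins, 14 Eph receptors, 4 ROBOs and 4 UNC5 receptors).

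RNA was sequenced in bulk from RUES2 human embryonic stem cells carrying a GFP::SMAD4 fusion, a reporter of BMP signaling, in 13 libraries. The study asked how gene expression follows the level and duration of BMP signaling. In the time series, cells grown at low density received 100 ng/mL BMP4 with 5 uM IWP2, an inhibitor of Wnt ligand secretion, and ROCK inhibitor (RI), and were collected at 0 h (2 libraries) and at 4, 12, 20, 28 and 42 h (1 library each). In the dose response, the same mixture was given for 5 h with 0, 10, 30, 100 or 300 nM of LDN-193189 (LDN), which inhibits BMP type I receptors, and a further library came from untreated cells in mTeSR medium (1 library each). All 13 libraries come from 1 reporter line, and ROCK inhibitor was in the growth medium of every group. The labels of the 0 h libraries name the BMP4 mixture as well, at a time of 0. Time-series RNA was depleted of ribosomal RNA and dose-response RNA was selected for polyA, so the 2 experiments were fitted apart.

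Guidance cues steer migrating cells and growing axons by contact or over a distance. Semaphorins signal through plexins, in many cases with neuropilins as co-receptors, and act on the cytoskeleton. Ephrins are tethered to the membrane, so that ephrins and Eph receptors signal between touching cells, in both directions, and help to keep cell populations apart. SLITs bind ROBO receptors and netrins bind DCC, neogenin and UNC5 receptors. Outside the nervous system the same families take part in vessel growth, epithelial organisation and the movement of cells in the early embryo, and in pluripotent cells BMP4 with Wnt inhibition is known to drive an amnion-like fate.

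Library totals were 37957385 to 71333471 counts in the time series and 15600931 to 33989998 in the dose response, the lowest being the untreated library. Mitochondrial genes took 7.89% of counts in the untreated library and 7.60% in 0 h replicate 1, against 2.01% to 4.49% in the other 11. These 2 were also the shallowest libraries of their experiments and so stand apart from the rest; calls that change without 0 h replicate 1 are given with the results. The share of all counts that fell on members was 0.275% and 0.282% at 0 h, peaked with 0.524% at 20 h and was 0.464% in the last library. Values below are CPM (a gene's counts scaled by the library total) unless FPKM (scaled by gene length as well) is named. The labelled cell types were checked with fixed markers. Pluripotency markers (5 genes) summed to 2205 and 2851 CPM at 0 h and 1170 CPM at 42 h. POU5F1 held 1145 CPM of the 42 h sum, from 1003 and 1721 CPM at 0 h. SOX2 went from 389 and 375 CPM at 0 h to 11.6 CPM at 42 h, and NANOG from 146 and 116 to 1.08. PRDM14 went from 53.7 and 63.9 CPM to 0.196 CPM, and TDGF1 from 613 and 576 to 11.7. The 6 amnion-like markers went from 2.77 and 2.78 CPM to 3919 CPM. Among markers of cells known for guidance genes, the neural sum was 296 and 356 CPM at 0 h and 74.4 CPM at 42 h, mostly from TUBB3, with SOX1 and ELAVL4 under 1 CPM in every library. The 6 endothelial markers summed to 5.74 to 20.6 CPM in the time series, with PECAM1 and CDH5 under 1 CPM in every library. Neural crest markers summed to 61.1 and 82.5 CPM at 0 h, mostly from FOXD3, and to 5.18 CPM at 42 h, mostly from TFAP2B. FOXD3 was under 1 CPM at 42 h, and TFAP2B was under 1 CPM in both 0 h libraries. The 3 mesenchymal markers summed to 8.80 and 7.21 CPM in the 0 h libraries, mostly from PDGFRA. Their sum was 5.47 CPM in the last library. PDGFRA was lowest in the 20 h library, with 1.35 CPM, and ended with 4.49 CPM. TWIST1 passed 1 CPM only in the 20 and 28 h libraries, which read 2.28 and 4.03 CPM. PRRX1 stayed under 1 CPM. The part of these markers in the results on members was not tested.

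Promoters are shown for members that fell with LDN dose at 5 h (described below), since SMAD-binding sequences near the start of a gene can be read there. All 66 members were found by identifier in the GENCODE 44 annotation of GRCh38, which places for example UNC5B at chr10:71212570-71302864 (plus strand) and EPHB3 at chr3:184561785-184582408 (plus strand). RefSeq promoters (GRCh38.p14) were held for 57 of the 66 members and for 7 of the 9 that fell with LDN, and 4 of these 7 have 1 entry and are printed. Each line gives the 250 bases before the gene's start, 5′ to 3′ on the gene's strand, in lower case, with matches in capitals to GGCGCC and GGAGCC, which are GC-rich SMAD1/5 sites, and to CAGAC, a SMAD4 site, searched on both strands. The windows are chr1:155127626-155127875 (plus strand) for EFNA1, chr13:106535663-106535912 (minus) for EFNB2, chr1:208244385-208244634 (minus) for PLXNA2 and chr3:129606677-129606926 (minus) for PLXND1.
EFNA1: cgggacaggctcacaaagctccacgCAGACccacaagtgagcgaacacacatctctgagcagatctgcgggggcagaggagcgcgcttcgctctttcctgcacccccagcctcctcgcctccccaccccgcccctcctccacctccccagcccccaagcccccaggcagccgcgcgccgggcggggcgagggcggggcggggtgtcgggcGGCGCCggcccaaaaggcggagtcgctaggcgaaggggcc
EFNB2: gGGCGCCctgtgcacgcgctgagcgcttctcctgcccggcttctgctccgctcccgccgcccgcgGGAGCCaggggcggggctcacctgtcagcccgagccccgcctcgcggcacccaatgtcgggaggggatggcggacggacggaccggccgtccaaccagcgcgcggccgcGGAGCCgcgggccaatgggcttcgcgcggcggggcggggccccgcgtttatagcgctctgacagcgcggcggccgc
PLXNA2: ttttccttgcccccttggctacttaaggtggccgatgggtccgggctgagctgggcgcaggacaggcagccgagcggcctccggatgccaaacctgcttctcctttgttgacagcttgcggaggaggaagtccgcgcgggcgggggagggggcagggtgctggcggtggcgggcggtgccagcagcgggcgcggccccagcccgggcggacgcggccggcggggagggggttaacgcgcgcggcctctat
PLXND1: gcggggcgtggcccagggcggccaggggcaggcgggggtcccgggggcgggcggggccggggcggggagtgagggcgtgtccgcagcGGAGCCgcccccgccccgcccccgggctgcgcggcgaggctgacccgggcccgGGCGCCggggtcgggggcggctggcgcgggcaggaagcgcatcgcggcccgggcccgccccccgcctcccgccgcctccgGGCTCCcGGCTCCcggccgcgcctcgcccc

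The EFNA1 window holds 1 GGCGCC and 1 CAGAC, the EFNB2 window 1 GGCGCC and 2 GGAGCC, and the PLXND1 window 1 GGCGCC and 3 GGAGCC. None of these letters is in the PLXNA2 window. GGCGCC was in 16.4% of all 35116 promoters and in 5 of the 14 promoters of members that fell with LDN, but also in 6 of 11 promoters of members that rose. For GGAGCC the shares were 30.6% of all promoters, 6 of 14 and 5 of 11. CAGAC was found in 38.0% of all promoters, in 3 of 14 and in 4 of 11. CATTGT, a SOX site searched in the same way, was in 9.29% of all promoters and in none of those 14 and 11. The 4 printed windows have a GC content of 72.4% to 88.8%, against a median of 58.0% over all promoters, and no motif count was corrected for this.

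Over the 42 h of BMP4 with IWP2, 23 of the 62 members tested rose and 9 fell, against 19.2% of all 15976 genes tested rising and 17.5% falling (edgeR quasi-likelihood test of a slope over hours, Benjamini-Hochberg adjusted p under 0.05). The fitted changes were large: rising members spanned 0.64 to 7.61 on the log2 scale over 42 h, with a median of 2.55, and falling members -3.98 to -1.08. The median fitted change was 0.55 over the members and -0.0047 over all genes tested, and the median absolute change was 1.45 against 0.59. A gene was tested where its mean reached 1 CPM, and SEMA3C, EPHB3, UNC5C and NTN4, all under 1 CPM at 0 h, passed only through later libraries, so the share of members called is a description. In bulk RNA, fewer cells of a type and less RNA per cell cannot be told apart, here and below. No time after 0 h has a replicate, and the scatter about the line is the only estimate of error. At 0 h the log2 ratios of the 2 libraries had an SD of 0.35 over the members (0.1 CPM added, as in all such ratios here), and EPHA10, at 0.922 and 1.92 CPM, was the 1 member that differed 2-fold between them in CPM as such.

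**Figure D1:**
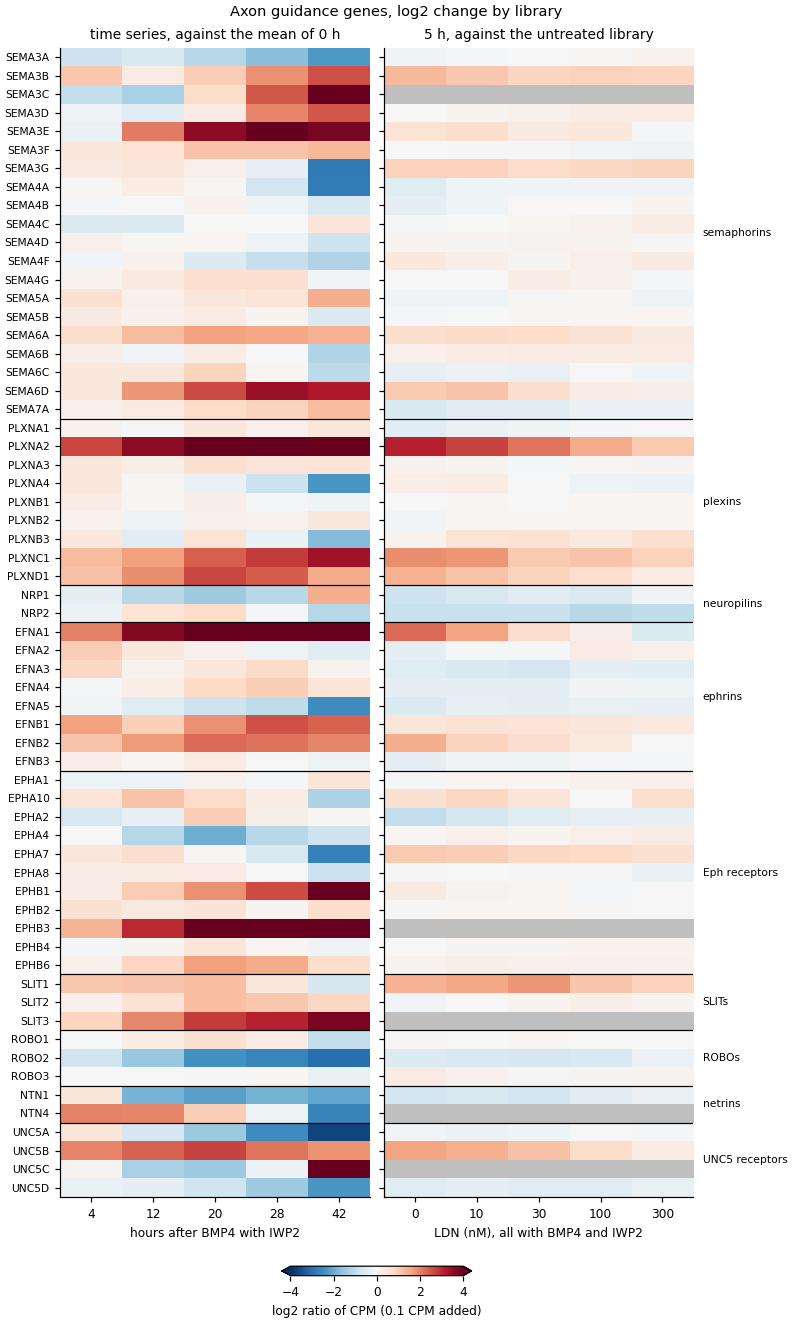
Log2 ratio of CPM, with 0.1 CPM added, for the 62 members tested over time (rows, grouped by family). Left, each later time against the mean of the 2 libraries at 0 h. Right, each LDN dose at 5 h against the untreated library, grey where the member was not tested in the dose response; colours saturate at 4 in either direction. EFNA1, PLXNA2 and EPHB3 reach the highest ratios at 42 h, and in the right panel EFNA1 and PLXNA2 fade from 0 to 300 nM LDN.

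Of 8 ephrins, 4 rose over time (EFNA1, EFNB1, EFNB2 and EFNA4), 1 fell (EFNA5) and 3 were not called. EFNA1, a GPI-anchored ephrin with the largest fitted change of any ligand here, was at 1.16 and 1.16 CPM at 0 h, then 4.96, 16.1, 40.3, 90.5 and 126 at 4, 12, 20, 28 and 42 h. Every later library thus lay above the one before it, and the level at 42 h was 109-fold that at 0 h. The fitted change was 7.32 ± 0.93 (SE, log2 over 42 h; edgeR adjusted p = 0.00079). EFNB2, a transmembrane ephrin known for its role in arteries, followed another course, with 30.8 and 28.5 CPM at 0 h, 64.8, 97.7, 142, 133 and 114 at 4, 12, 20, 28 and 42 h. Its highest level was at 20 h, and all later libraries exceeded both 0 h libraries (fitted change 2.31 ± 0.58, edgeR adjusted p = 0.016). EFNB1, also transmembrane, went from 7.98 and 11.1 CPM to 29.2, 18.5, 34.5, 55.8 and 49.9 at 4, 12, 20, 28 and 42 h, with a dip at 12 h. EFNA5 fell from 21.7 and 16.3 CPM to 17.7, 13.5, 10.7, 9.38 and 3.27 CPM at 4, 12, 20, 28 and 42 h (fitted change -2.02 ± 0.30, edgeR adjusted p = 0.0017). Its 4 h value lies between the 0 h libraries, and the values from 12 h on lie below both.

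Measured per length, the ephrin family changed its leading member. Summed over the 8 genes, ephrins stood at 47.1 ± 2.79 FPKM (SD, n = 2) at 0 h and 178 FPKM at 42 h. EFNA4, at 12.0 FPKM, had the highest level per length of the family at 0 h and EFNA1 held 2.09% of the sum. At 42 h EFNA1, with 104 FPKM, held 58.5%. EFNA4 and EFNA3 share exons with an annotated EFNA4-EFNA3 readthrough gene, which had at most 0.0817 CPM, so the split between the 3 is uncertain.

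Of the 14 Eph receptors 11 were tested over time, and 2 were called, both rising. EPHB3, a B-class receptor for transmembrane ephrins, had the largest fitted change of all members over time. Its values were 0.843 and 0.855 CPM at 0 h, 2.34, 7.49, 29.8, 59.6 and 83.0 at 4, 12, 20, 28 and 42 h, a 97.7-fold difference between 42 and 0 h (fitted change 7.61 ± 0.87, edgeR adjusted p = 0.00046). EPHB1, another B-class receptor, stood at 10.6 and 8.82 CPM at 0 h, at 12.0, 19.5, 34.6 and 59.4 CPM at 4, 12, 20 and 28 h, and at 196 CPM at 42 h. The fitted change of EPHB1 was 4.51 ± 0.20, with the lowest adjusted p of the members (9.03e-06, edgeR). Both receptors rose in each successive library.

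At 0 h the Eph receptor with the highest level per length was EPHB4, a receptor for EFNB2, at 83.4 ± 8.46 FPKM, before EPHA1 at 59.6 ± 11.1 FPKM (SD, n = 2), while at 42 h EPHA1 had 80.6 and EPHB4 73.3 FPKM. In CPM EPHB4 read 303 and 343 at 0 h, 314, 347, 453, 337 and 293 at 4, 12, 20, 28 and 42 h, and it was not called over time. EPHA1 (130 and 182 CPM at 0 h, 217 at 42 h) was not called either. EPHB6, a receptor without kinase activity, had 25.1 and 39.7 CPM at 0 h, 101 at 20 h and 52.2 at 42 h. EPHA2 stood at 43.1 and 44.1 CPM at 0 h, 28.0, 34.4, 85.5, 51.3 and 46.1 at 4, 12, 20, 28 and 42 h. It was thus lower than at 0 h first and higher at 20 h, and a line did not call it. EPHA7 was at 5.11 and 3.66 CPM at 0 h, reached 7.18 at 12 h and was at 0.588 at 42 h. EPHA3, EPHA5 and EPHA6 did not reach the minimum in either experiment, with at most 82 counts in a library.

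**Figure D2:**
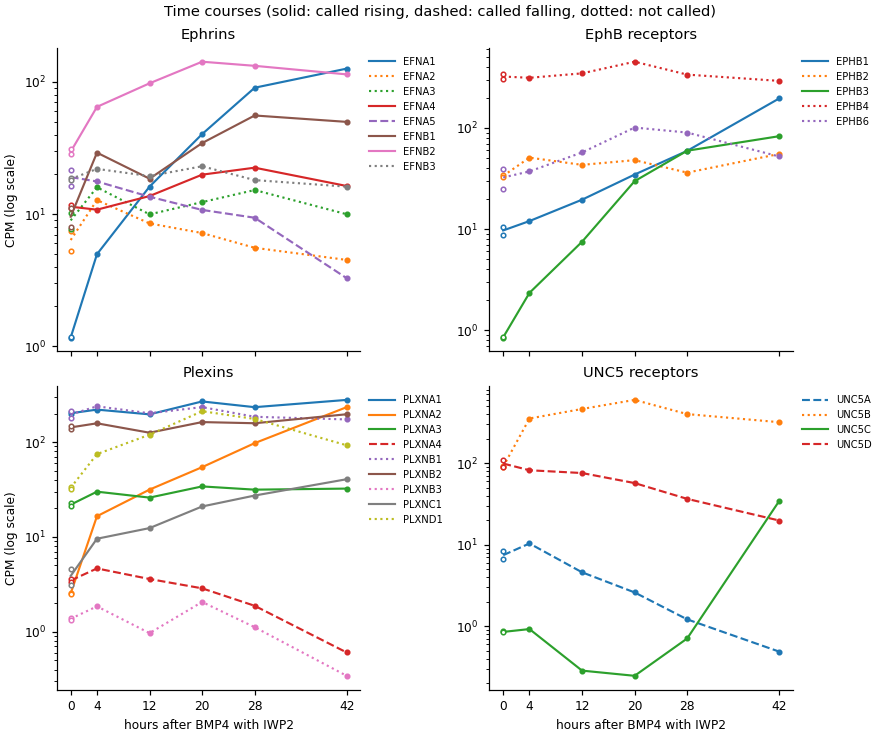
CPM on a log axis against hours after BMP4 with IWP2 for ephrins, EphB receptors, plexins and UNC5 receptors. Open circles are the 2 libraries at 0 h, with lines starting from their mean, and filled circles single libraries; line style gives the call of the linear trend. EFNA1, EPHB3 and PLXNA2 climb through every time, UNC5B peaks at 20 h, and UNC5C stays under 1 CPM until 28 h before reaching 34.5 CPM at 42 h.

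Among plexins, the semaphorin receptors, 5 of 9 rose and 1 fell over time. PLXNA2, known as a receptor for SEMA6A, was at 2.56 and 2.51 CPM at 0 h, 16.5, 31.6, 54.4, 97.6 and 234 at 4, 12, 20, 28 and 42 h. It rose in each later library and was 92.3-fold higher at 42 h than at 0 h (fitted change 6.06 ± 0.80, edgeR adjusted p = 0.00097). PLXNC1, the receptor for SEMA7A, was at 4.64 and 3.13 CPM at 0 h and 9.58, 12.4, 21.0, 27.3 and 40.6 CPM at 4, 12, 20, 28 and 42 h (fitted change 3.52 ± 0.42). PLXNC1 exons overlap those of CEP83 on the other strand, which reached 20.4 CPM in these libraries, and how the counting treated strand is not given in the sources used here. PLXND1, a receptor for SEMA3E known from vessels, had 34.0 and 32.1 CPM at 0 h, 74.7, 120, 212, 176 and 92.6 at 4, 12, 20, 28 and 42 h. The course was a pulse: every later library lay above 0 h, the peak was 6.42-fold higher than 0 h, and the line did not call it (edgeR adjusted p = 0.071), while a fit with hours and hours squared did (edgeR adjusted p = 2.97e-05). PLXNA4 fell from 3.64 and 3.31 CPM to 0.605 CPM at 42 h, through 4.66, 3.60, 2.87 and 1.88 CPM.

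The plexins with the highest levels at 0 h had smaller ratios. PLXNB1 led the family per length with 65.8 ± 1.90 FPKM (SD, n = 2) at 0 h and 50.8 FPKM at 42 h, in CPM 180 and 211 at 0 h, 239, 201, 234 and 185 at 4 to 28 h and 174 at 42 h. It was not called, and its share of the summed plexin FPKM went from 47.1% to 22.9%. PLXNA2 reached 55.3 FPKM at 42 h, from 0.63 ± 0.31 FPKM (SD, n = 2), and so stood above PLXNB1 in that library. PLXNA1, PLXNA3 and PLXNB2 rose by 0.64 to 0.77 on the fitted log2 scale, and were 1.38- to 1.48-fold higher at 42 h than at 0 h.

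Neuropilins, the co-receptors of class 3 semaphorins, moved in opposite ways late. NRP1 had 9.46 and 9.10 CPM at 0 h, 7.15, 4.28, 3.40, 4.25 and 25.5 at 4, 12, 20, 28 and 42 h. NRP2 had 44.6 and 33.0 CPM at 0 h, 33.1, 57.0, 64.1, 36.4 and 17.4 at 4, 12, 20, 28 and 42 h. NRP1 was lowest and NRP2 highest at 20 h, and at 42 h NRP1 lay above NRP2. Neither was called by the line, and both were by the fit with hours and hours squared (edgeR adjusted p = 1.46e-05 and 0.014).

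In the semaphorins, 9 of 20 rose, 3 fell and 8 were not called. Among the secreted class 3, SEMA3B, SEMA3C, SEMA3D, SEMA3E and SEMA3F rose, SEMA3A fell and SEMA3G was not called. SEMA3E was at 1.05 and 1.39 CPM at 0 h, 0.993, 5.54, 15.5, 30.8 and 18.4 at 4, 12, 20, 28 and 42 h. SEMA3C was at 0.369 and 0.617 CPM at 0 h, 0.199, 0.143 and 0.891 CPM at 4, 12 and 20 h, 3.22 at 28 h and 10.2 at 42 h. SEMA3D was at 8.35 and 8.05 CPM at 0 h, 7.17, 6.13 and 10.2 CPM at 4, 12 and 20 h, 32.3 at 28 h and 46.2 at 42 h. SEMA3C and SEMA3D were late: at 4 and 12 h both lay below both of their 0 h values. Fitted changes were 5.74 ± 1.03 for SEMA3E, 4.99 ± 0.84 for SEMA3C and 2.95 ± 0.47 for SEMA3D (edgeR adjusted p = 0.0039, 0.0029 and 0.0022). SEMA3C passed the minimum through its late libraries, and without the 42 h library, or with a minimum of 2.5 CPM, it was not tested. SEMA3B was higher already at 4 h, with 5.35 and 7.75 CPM at 0 h, 14.1, 8.21, 12.9, 23.3 and 39.7 at 4, 12, 20, 28 and 42 h. SEMA3A, the founding repulsive cue, went the other way, from 44.8 and 35.2 CPM to 22.6, 25.8, 18.1, 12.5 and 8.11 CPM (fitted change -1.97 ± 0.29, edgeR adjusted p = 0.0017), and every later library lay below both 0 h libraries.

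Transmembrane semaphorins of class 6 held the highest level of the family. SEMA6A led all 66 members per length in every time-series library from 4 h on, and at 0 h had 112 and 83.2 FPKM, beside 77.5 and 89.4 FPKM for EPHB4. In CPM SEMA6A read 456 and 340 at 0 h, 651, 956, 1207, 1170 and 1039 at 4, 12, 20, 28 and 42 h (fitted change 1.75 ± 0.42, edgeR adjusted p = 0.013). Antisense genes overlap SEMA6A exons, with up to 7.96 CPM. SEMA6D was at 11.0 and 6.56 CPM at 0 h, 11.9, 30.3, 55.5, 96.0 and 80.9 at 4, 12, 20, 28 and 42 h (fitted change 4.15 ± 0.59, edgeR adjusted p = 0.0014). SEMA6B, by contrast, had 140 and 210 CPM at 0 h and 75.0 at 42 h and was not called. SEMA4A, of the transmembrane class 4, stayed between 15.5 and 20.8 CPM until 20 h and was at 9.87 CPM at 28 h and 2.32 CPM at 42 h (fitted change -2.02 ± 0.68, edgeR adjusted p = 0.046). Of the remaining called semaphorins, SEMA3F, SEMA5A and the GPI-anchored SEMA7A rose by 1.38 to 1.58 on the fitted log2 scale, and SEMA4F fell by 1.08.

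SLITs and netrins were low per length, with family sums of at most 6.23 and 2.47 FPKM in the time series. SLIT2, the highest SLIT per length (1.75 ± 0.057 FPKM, SD, n = 2, at 0 h), had 13.6 and 12.1 CPM at 0 h, 14.4, 19.5, 30.1, 27.1 and 23.2 at 4, 12, 20, 28 and 42 h (fitted change 1.36 ± 0.32, edgeR adjusted p = 0.013). SLIT3 was at 1.11 and 0.911 CPM at 0 h and at 1.92, 4.07, 7.66, 9.19 and 14.9 CPM later, higher in each library than in the one before (fitted change 4.22 ± 0.46). NTN1, a secreted netrin, dropped early: it had 5.72 and 6.98 CPM at 0 h, 8.91 at 4 h, and 1.68, 1.32, 1.62 and 1.42 CPM from 12 h on (fitted change -2.39 ± 0.67, edgeR adjusted p = 0.025). NTN4 had 0.501 and 0.575 CPM at 0 h, 2.45, 2.38, 1.16, 0.457 and 0 CPM at 4, 12, 20, 28 and 42 h, and 3 counts would be 0.0490 CPM in the last.

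Of the ROBO receptors, ROBO2 fell, from 4.14 and 3.29 CPM at 0 h to 2.07, 1.24, 0.611, 0.508 and 0.376 CPM, lower at each later time (fitted change -3.29 ± 0.51, edgeR adjusted p = 0.0020). ROBO1, the highest ROBO per length (24.0 ± 6.53 FPKM, SD, n = 2, at 0 h), had 154 and 109 CPM at 0 h, 130, 161, 200.2, 165 and 66.8 at 4, 12, 20, 28 and 42 h. Its 42 h value lay below both 0 h values, and the line did not call it. ROBO3 stayed between 4.66 and 6.04 CPM. ROBO4, an endothelial member, had at most 4 counts in any library.

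The UNC5 receptors, which carry repulsive netrin signals, took 4 different courses. UNC5B, with the highest mean FPKM of the family over the time series, had 90.3 and 91.5 CPM at 0 h, 354, 463, 599, 401 and 319 at 4, 12, 20, 28 and 42 h. Its level was 3.89-fold higher at 4 h than at 0 h and 6.59-fold higher at 20 h. UNC5B was not called by the line (edgeR adjusted p = 0.18) but was by the fit with hours and hours squared (edgeR adjusted p = 0.0068). UNC5D had 109 and 89.8 CPM at 0 h and 82.1, 75.9, 57.2, 36.6 and 19.9 CPM after, lower in each library than in the one before (fitted change -2.01 ± 0.20, edgeR adjusted p = 0.00026). UNC5A had 6.64 and 8.30 CPM at 0 h, 10.4 at 4 h, and then 4.60, 2.61, 1.22 and 0.490 CPM (fitted change -3.98 ± 0.40, edgeR adjusted p = 0.00028), the largest fall among the members called. UNC5C stayed between 0.248 and 0.927 CPM until 28 h and was at 34.5 CPM at 42 h, with a fitted change of 5.26 ± 1.24 (edgeR adjusted p = 0.012). Without the 42 h library UNC5C was under the minimum and was not tested. At 0 h UNC5D, with 15.2 ± 0.93 FPKM, and UNC5B, with 13.9 ± 0.11 FPKM (SD, n = 2), were near each other per length. At 42 h UNC5B held 81.9% of the summed UNC5 FPKM, against 44.3% at 0 h.

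**Figure D3:**
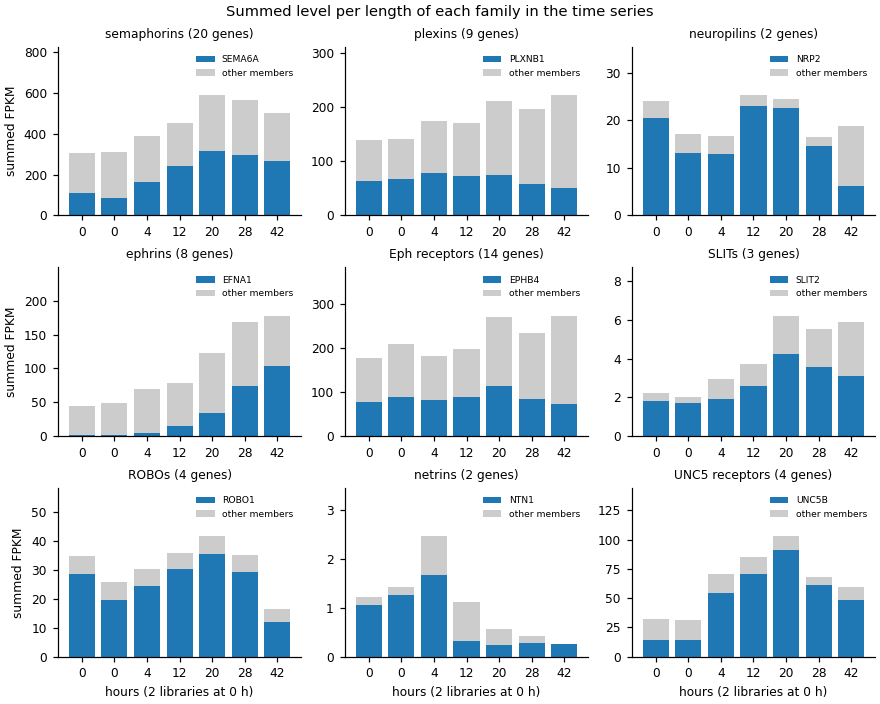
Summed FPKM of each family (bar height) in the 7 time-series libraries, with the part of the family's leading member in blue and the other members in grey. EFNA1 goes from 2.09% of the ephrin sum at 0 h to 58.5% at 42 h, while PLXNB1 goes from 47.1% to 22.9% of the plexin sum.

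Of the 62 members tested, 4 were highest at 0 h and 10, 5, 19, 5 and 19 at 4, 12, 20, 28 and 42 h. The share of all genes with each peak time was not counted, so these counts are a description. For a member that changed little, such as ROBO3 (4.66 to 6.04 CPM), the peak is only whichever time read highest. The fit with hours and hours squared called 52 of the 62 (background 47.7% of all genes tested), and 20 of these 52 were not called by the line, among them UNC5B, PLXND1, NRP1, NRP2, NTN4, SEMA3G and EPHA7. Between 0 and 42 h, 21 members were at least 2-fold higher (background 11.9%) and 17 at least 2-fold lower (background 19.8%). At 42 h the median log2 ratio over all genes was -0.24 on library totals and -0.0084 with TMM scaling, so the 2-fold counts on library totals lean to the lower side. Of the 32 calls of the linear trend, 19 were kept under every alternative in which the gene was tested, which for SEMA3C left out the 2 named above and for ROBO2 the minimum of 2.5 CPM. The other 13 were EFNA4, EFNB2, NTN1, PLXNA1, PLXNA3, PLXNA4, PLXNB2, SEMA4A, SEMA4F, SEMA5A, SEMA6A, SLIT2 and UNC5C. Without 0 h replicate 1, which stands apart in depth and mitochondrial share, the 7 calls of EFNA4, EFNB2, NTN1, PLXNA3, PLXNB2, SEMA4A and SEMA6A were lost, with adjusted p from 0.0503 to 0.0744 (edgeR). Without the 42 h library the calls of PLXNA1, PLXNA3, PLXNA4, PLXNB2, SEMA4A, SEMA4F and SEMA5A were lost. Of these, PLXNA4 and SEMA5A, lost under no other alternative, had adjusted p of 0.13 and 0.24 (edgeR).

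With 0.1 CPM added, 11 members were at least 2-fold higher at 4 h than at 0 h and 0 were 2-fold lower (backgrounds 5.66% and 0.807%); with no CPM added EFNA2 joins the higher ones (12.8 CPM at 4 h) and SEMA3C becomes the 1 lower. In the separate dose-response experiment, BMP4 with IWP2 for 5 h left 10 of 57 members tested at least 2-fold higher than in untreated cells and 0 2-fold lower (backgrounds 6.14% and 2.03%). Each side of these comparisons has 1 library, apart from the 2 at 0 h, and none was tested. The lists share 8 members: SEMA3B, PLXNA2, PLXNC1, PLXND1, EFNA1, EFNB2, SLIT1 and UNC5B, which are 8 of 11 and 8 of 10. Both held for 2.99% of all genes tested in both experiments, where 68.6% of those 2-fold higher at 4 h were so with BMP4 at 5 h, and 49.4% the other way round, beside 8 of 9 and 8 of 10 members. EFNB1 was 2-fold higher in the time series alone, and SEMA6D and EPHA7 in the dose response alone. NTN4 and EPHB3, the remaining members at 4 h, were under the minimum in the dose response. The early responders thus hold ligands (SEMA3B, EFNA1, EFNB2, SLIT1) and receptors (3 plexins and UNC5B). EPHB3, untested in the dose response for its low counts, was 2.75-fold higher at 4 h and 2.42-fold higher with BMP4 than untreated. SLIT1 was low, with 1.58 and 1.35 CPM at 0 h and 3.22 at 4 h. The dose response gave 43 counts with BMP4 (exact 95% interval 1.08 to 2.02 CPM) and 8 counts in the shallower untreated library (0.221 to 1.01 CPM).

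LDN lowers BMP receptor activity, and the dose response asks which members follow it. Over the 5 libraries with BMP4, 9 of the 57 members tested fell with LDN dose and 10 rose, against 10.9% of 14907 genes falling and 10.4% rising (edgeR quasi-likelihood test of a slope per dose step, the doses 0, 10, 30, 100 and 300 nM counting as steps 0 to 4). The slopes of the members that fell were -0.71 to -0.084 on the log2 scale per step (median -0.26), and those of the members that rose 0.039 to 0.17 (median 0.098). Among the early responders shared by the comparisons above, SLIT1 was not called with LDN and the others were called falling. They were picked for a high value in the 0 nM library, which also starts this slope. Their fall is thus no separate result, and the share among all genes picked alike was not counted. Over the members the median absolute slope was 0.068 per step, and over all genes tested 0.035.

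EFNA1 had the steepest slope, with 11.8, 7.36, 3.97, 2.86 and 1.60 CPM at 0, 10, 30, 100 and 300 nM LDN and 2.37 CPM untreated (slope -0.71 ± 0.043 SE per step, edgeR adjusted p = 2.70e-07). The library with 300 nM LDN lay below the untreated one, though on 53 and 37 counts the exact 95% intervals of 1.20 to 2.09 and 1.67 to 3.27 CPM overlap (intervals cover counting error only). PLXNA2 had 9.71, 7.27, 4.86, 3.06 and 2.23 CPM from 0 to 300 nM and 1.03 CPM untreated (slope -0.54 ± 0.042, edgeR adjusted p = 1.89e-06). At the highest dose PLXNA2 was still at least 2-fold higher than in untreated cells (background 2.23%), with 74 counts against 16 and intervals of 1.75 to 2.80 and 0.586 to 1.67 CPM. No other of the 57 members was so placed with 0.1 CPM added, and SLIT1, at 1.06 and 0.513 CPM on 35 and 8 counts, was with none added. EFNB2 had 69.2, 46.8, 40.7, 32.5 and 25.2 CPM and 25.1 CPM untreated (slope -0.34 ± 0.021, edgeR adjusted p = 2.70e-07), so that 300 nM LDN and no treatment gave near-equal values.

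UNC5B had 217, 195, 164, 122 and 89.9 CPM from 0 to 300 nM LDN and 72.9 CPM untreated (slope -0.32 ± 0.022, edgeR adjusted p = 8.74e-07). PLXND1 had 66.9, 57.1, 47.8, 40.7 and 32.4 CPM and 25.6 CPM untreated (slope -0.25 ± 0.015, edgeR adjusted p = 1.65e-07). Both fell at every step and stayed above the untreated library at each dose. PLXNC1 had 4.42, 4.15, 2.49, 2.64 and 2.26 CPM and 1.15 CPM untreated. SEMA6D had 8.66, 9.33, 6.82, 5.18 and 5.01 CPM and 4.17 CPM untreated. SEMA3B had 12.8, 11.0, 9.47, 9.75 and 9.32 CPM and 5.13 CPM untreated. These 3 do not fall at every step, but all their values with LDN from 30 nM on lie between those at 0 nM and untreated (edgeR adjusted p = 0.0085, 0.0020 and 0.027). SEMA6A had 603, 628, 616, 550 and 476 CPM and 372 CPM untreated (slope -0.084 ± 0.019, edgeR adjusted p = 0.0086). Of its libraries with LDN, only those at 100 and 300 nM lay below the value at 0 nM. In all, 5 of the 9 fell at every dose step: EFNA1, PLXNA2, EFNB2, UNC5B and PLXND1. CEP83, whose exons overlap those of PLXNC1 on the other strand, reached 27.45 CPM in the dose response. How the counting treated strand is not given, so the PLXNC1 profile is uncertain.

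**Figure D4:**
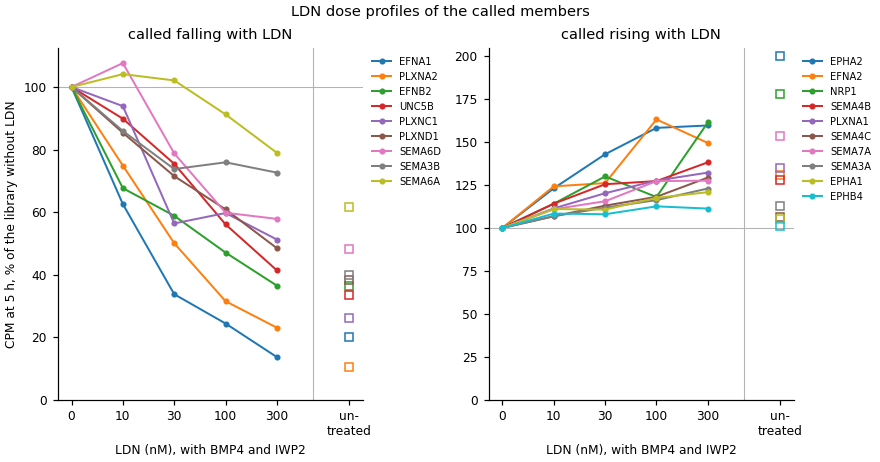
CPM at 5 h as a percentage of the library with BMP4 and no LDN, against LDN dose in steps, for the 9 members called falling (left) and the 10 called rising (right). Squares are the untreated library, and each point is 1 library. EFNA1 ends at 1.60 CPM from 11.8 CPM and PLXNA2 at 2.23 from 9.71, while the rising members are at most 1.61-fold higher at 300 nM than without LDN.

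The members that rose with LDN changed little. EPHA2 had the largest slope, with 18.0, 22.2, 25.8, 28.5 and 28.8 CPM from 0 to 300 nM and 36.0 CPM untreated (slope 0.17 ± 0.025, edgeR adjusted p = 0.00042). Its level with BMP4 alone was the lowest of the 6 libraries and the untreated level the highest. NRP1 had 4.28, 4.88, 5.56, 5.05 and 6.91 CPM and 7.63 CPM untreated (slope 0.15 ± 0.044, edgeR adjusted p = 0.031). EFNA2 had 5.04, 6.27, 6.36, 8.23 and 7.54 CPM and 6.60 CPM untreated (slope 0.16 ± 0.041, edgeR adjusted p = 0.018). For EPHA2 and NRP1 the doses thus lie between BMP4 alone and untreated, and for EFNA2 the untreated value lies within the range of the doses. SEMA4B had 39.6, 45.2, 49.7, 50.4 and 54.7 CPM and 50.8 CPM untreated. PLXNA1 had 131, 145, 157, 167 and 173 CPM and 176 CPM untreated (slope 0.10 ± 0.012, edgeR adjusted p = 5.62e-05). SEMA4C had 77.6, 82.9, 87.7, 91.7 and 100.4 CPM and 82.4 CPM untreated. All 3 rose at every step, but SEMA4B and SEMA4C ended above the untreated library. The other 4, SEMA3A, SEMA7A, EPHA1 and EPHB4, differed by 1.11- to 1.28-fold between 0 and 300 nM. EPHA1 and EPHB4 share exon bases with ZYX and SLC12A9 on the other strand, at up to 194 and 59.3 CPM in the dose response.

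NRP2 had its highest level in the untreated library. It was at 43.9 CPM untreated and 23.6, 23.5, 23.5, 20.3 and 21.9 CPM from 0 to 300 nM LDN, so all 5 libraries with BMP4 and IWP2 lay below the untreated one, and the slope was not called (edgeR adjusted p = 0.26). Against the 300 nM library NRP2 was the 1 member at least 2-fold lower than untreated (background 0.645%). In the time series the 4 h value of 33.1 CPM lay within the 0 h pair. The untreated library differs from the others also in lacking IWP2 and in its depth and mitochondrial share, and these cannot be told apart. Of the 57 members, 38 were not called with dose, with slopes from -0.16 to 0.12 per step, and among them were PLXNB1, at 178 to 190 CPM in all 6 libraries, and ROBO1, at 108 to 116 CPM. EPHB3 was under the minimum in the dose response, with 49, 36, 22, 19 and 12 counts from 0 to 300 nM and 11 untreated, lower at every step, and was not tested.

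Limits of the dose trend follow from 5 libraries. The 5 members that fell at every step kept their calls under every alternative, and the other 14 lost theirs under at least 1. Without the library at 0 nM LDN, 5 members rose and 7 fell, and SEMA3A, SEMA3B, SEMA7A, EFNA2, EPHB4, NRP1 and PLXNC1 were no longer called.

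Of the 57 members tested in both trends, 10 were called in both (background 9.14% of all genes tested in both). Of these, 7 rose over time and fell with LDN (background 3.51%; EFNA1, EFNB2, PLXNA2, PLXNC1, SEMA3B, SEMA6A and SEMA6D), 2 rose in both (background 1.36%; SEMA7A and PLXNA1) and SEMA3A fell over time and rose with LDN (background 3.65%). No member was called as falling in both (background 0.623%). Several members called over time were not called with dose at 5 h: EPHB1 had 11.0, 9.39, 8.98, 8.01 and 8.51 CPM from 0 to 300 nM (slope -0.092 ± 0.032, edgeR adjusted p = 0.061), and SEMA3D, EFNB1, UNC5A and UNC5D were not called either. By role, 15 of 33 ligands tested rose over time and 5 fell, and 8 of 29 receptors rose and 4 fell (backgrounds 19.2% rising and 17.5% falling). With LDN, 5 of 30 ligands rose and 5 fell, and 5 of 27 receptors rose and 4 fell (backgrounds 10.4% and 10.9%). A difference between the roles was not tested.

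**Figure D5:**
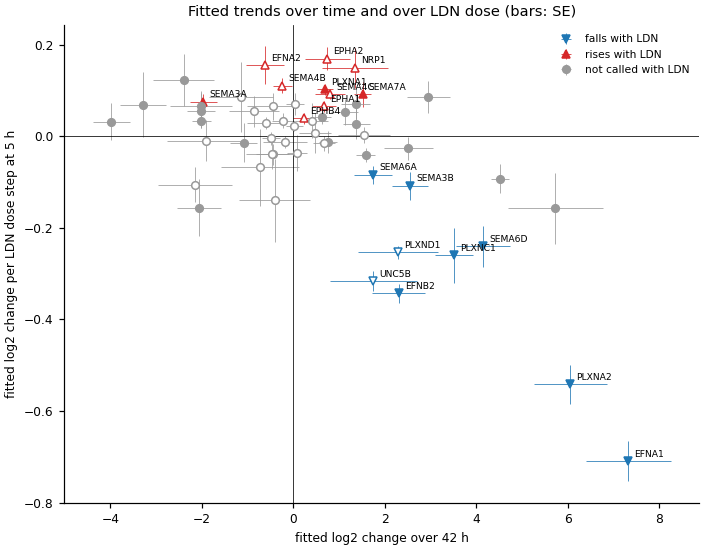
Fitted log2 change over 42 h (horizontal) against fitted log2 change per LDN dose step at 5 h (vertical) for the 57 members tested in both, with SE bars. Colour and shape give the dose call, and filled symbols are called over time. EFNA1 (7.32, -0.71) and PLXNA2 (6.06, -0.54) lie apart at the lower right, and the 10 members that rise with LDN lie at slopes of 0.17 or less.

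Other genes of the pathways were read from a list of 92 that act as co-receptors, adhesion partners or intracellular effectors, of which 81 were tested in each experiment. Over time 19 rose and 18 fell (backgrounds 19.2% and 17.5%), and with LDN 15 rose and 14 fell (backgrounds 10.4% and 10.9%). The 5 with the largest time slopes were FLRT3, an adhesion protein that binds UNC5 receptors, at 0.738 and 0.603 CPM at 0 h and 23.4 at 42 h (fitted change 5.19 ± 0.60), KALRN at 8.27 and 6.24 CPM and 163 (4.62 ± 0.40), and 3 that fell: DPYSL3, a collapsin response mediator, from 861 and 849 CPM to 73.3 (-3.44 ± 0.19), the receptor phosphatase PTPRO (-3.03 ± 0.32) and VAV3 (-3.02 ± 0.37). FLRT3 was at 0.603 to 1.04 CPM until 20 h. It passed the minimum only through the 28 and 42 h libraries, at 3.67 and 23.4 CPM. In the dose response the largest slopes were falls, in NTNG2 (-0.35 ± 0.10), KALRN (-0.32 ± 0.032), NTNG1 (-0.29 ± 0.075), FLRT1 (-0.27 ± 0.066) and the tyrosine kinase FES (-0.26 ± 0.028). NTNG2 was near the minimum, with 1.25, 1.68, 1.11, 0.708 and 0.543 CPM from 0 to 300 nM. It passed only through the libraries at 0, 10 and 30 nM, where it is high, so its slope is a description. KALRN went from 13.2 CPM at 0 nM through 11.8, 8.73 and 7.11 CPM to 5.55 CPM at 300 nM, with 4.62 CPM untreated. DCC, the attractive netrin receptor, was at 1.21 and 0.981 CPM at 0 h and under 0.6 CPM from 4 h on, and was not tested. NEO1, encoding neogenin, had 103 and 77.9 CPM at 0 h, a peak of 167 CPM at 12 h and 52.5 CPM in the last library, and fell with LDN from 128 to 91.9 CPM (slope -0.12 ± 0.011, edgeR adjusted p = 1.27e-05).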

How the data were processed

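The 13 bulk RNA-seq libraries comprise 7 of a time series and 6 of a dose response. Per the methods of the authors, Cutadapt served for trimming, STAR 2.7.8a for mapping to GRCh38 (ENSEMBL, release not given in the sources used here) and RSEM 1.3.3 for count estimates. The deposited count tables hold expected counts, which were whole numbers and unscaled, and the deposited FPKM tables hold values that the authors normalized for depth and gene length. Strand settings are not given in the sources used here. The members and gene lists were chosen with earlier results of these data known.

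The quasi-likelihood test of edgeR 4.0.16, with TMM scaling, was run on rounded counts of all genes averaging 1 CPM or more on library totals. Over time the covariate was hours and the slope is printed for 42 h. In the dose response it was the LDN step (0 to 4) over the 5 libraries with BMP4. Adjusted p values are Benjamini-Hochberg over all genes tested, with calls under 0.05. Replicates after 0 h were lacking, and nothing says that the 2 libraries at 0 h came from separate cultures. Comparisons between groups of 1 library used log2 ratios with 0.1 CPM added and have no test. FPKM served for levels between genes. The members described in every library were those called in either trend with the largest absolute slopes, at most 30 in all, and the member with the highest FPKM of each family. Of the listed pathway genes, the 5 called with the largest absolute slope in each trend were named; DCC and NEO1 were named as netrin receptors after their values were seen. Intervals on counts are exact binomial (95%), and 3 counts correspond to 0.0421 to 0.0790 CPM in the time series and 0.0883 to 0.192 CPM in the dose response. Alternatives used other scaling, minimum CPM, pseudocounts (0.01 and 1 CPM), DESeq2 1.42.0, limma 3.58.1 on log2(FPKM + 0.1), other covariates, among them the study's SMAD4 integral, and leaving out each library. The fits were also run on simulated counts with straight-line changes and the same scatter for every gene, a setting that does not cover pulses.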

Additional observations from a re-analysis of the deposited data

How the results depend on the processing

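No paired analysis was possible because only 0 h has more than 1 library and the labels number replicates at 0 h alone, so the groups compared share fewer than 2 numbers. For the linear time trend, counts of members rising (23) and falling (9) stayed within 1.5 times under every alternative, and leaving out 1 library gave 18 to 25 rising and 6 to 9 falling. The fit with hours and hours squared called 52 in place of 32, by construction in either direction and with pulses included. With LDN, limma on log2(FPKM + 0.1) called 1 rising (10 in the main fit) and 5 falling (9), and leaving out 1 library gave 5 to 10 rising, 5 of them without 0 nM LDN, and 7 to 9 falling; the cause was not tested. Members at least 2-fold lower at 4 h than at 0 h (0) became 1 with TMM-scaled CPM and 1 with no CPM added, and leaving out a 0 h library gave 0 to 1. Those at least 2-fold lower with BMP4 than untreated (0) became 1 with TMM-scaled CPM, 2 with FPKM and 2 with no minimum. Those at least 2-fold higher at 300 nM LDN than untreated (1) became 2 with no CPM added, a setting chosen after seeing the data. For the called members taken singly, 411 of the alternatives over time kept the call and 33 lost it, and with LDN 224 kept it and 42 lost it, and no direction was reversed. The fits estimate error from 1 library per time or dose, so that a difference between neighbouring libraries cannot be told from library error, and low members such as NTN4, SLIT1 and ROBO2 rest on few counts in some libraries (23 for ROBO2 at 42 h).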
